A study of Homo sapiens with 6 samples.

Results

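The insulin-like growth factor (IGF) axis was examined through 10 genes, namely the binding proteins IGFBP2 to IGFBP7, the receptors IGF1R, IGF2R and INSR, and the RNA-binding protein gene IGF2BP2. They were chosen by name, and each was read at its brightest probe set annotated to that gene alone. This rule found 9 of the 10 among 18404 genes measured. IGFBP6 is carried only by a probe set shared with C12orf57, and so entered no test of genes. The 6 arrays measured RNA of HaCaT, a human keratinocyte line that became immortal spontaneously, 72 hours after a lentivirus had brought in a short hairpin RNA (shRNA). In 3 samples the hairpin targeted TP63 (shTP63), the gene of the basal-layer transcription factor p63, and the other 3 received a control vector (shControl). All groups thus share the HaCaT background and the lentiviral delivery. The labels name no clone, no number of hairpin sequences and no separate cultures, so the p-values reflect a spread among samples that may be purely technical. TP63 was not analysed here, which leaves the knockdown unchecked, and each direction rests on the sample labels.

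IGF1 and IGF2 signal to growth and survival through IGF1R, a receptor tyrosine kinase closely related to the insulin receptor INSR, with which it can form hybrid receptors. IGF2R, the cation-independent mannose 6-phosphate receptor, has no kinase: it carries lysosomal enzymes to the lysosome and removes IGF2 from the cell surface. The IGFBPs hold IGFs in the extracellular space, and proteases such as pappalysin, PAPPA, cut them and free the ligand. In skin, keratinocytes respond to IGF1 that comes largely from dermal fibroblasts, and IGFBP3 is made by basal keratinocytes.

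On the deposited scale 4 of the 9 genes rose in shTP63 and 0 fell in limma. IGFBP3 rose most, 1.78-fold, followed by IGF2R (1.39-fold), IGF1R (1.23-fold) and INSR (1.12-fold), and no gene was lower at an unadjusted p under 0.05. IGFBP2, IGFBP4, IGFBP5, IGFBP7 and IGF2BP2 did not pass the test. The threshold was an adjusted p of 0.05 in limma's moderated test over all genes, which 16.4% of all genes passed as rises and 25.1% as falls (41.5% in either direction). In 6 of the 9 genes the 3 values of one group lay apart from those of the other, as in 51.4% of all genes. The median difference of the 9 genes was 0.04 on the log2 scale, against -0.01 over all genes.

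To show what stands before the genes that rose, the 250 bases upstream of their annotated starts are printed from RefSeq (GRCh38.p14), with that of IGFBP4, which did not pass, beside them. Sequences were matched by symbol, which gave 12 windows for 9 of the 10 genes. Capitals mark the GC box GGGCGG and the TATA-type motif TATANA on either strand, and neighbouring matches may overlap. The windows lie at chr7:45921273-45921522 (minus strand, IGFBP3), chr15:98648289-98648538 (plus strand, IGF1R), chr6:159968832-159969081 (plus strand, IGF2R), chr19:7294415-7294664 (minus strand, INSR) and chr17:40443200-40443449 (plus strand, IGFBP4), each read 5′ to 3′ towards the gene.
IGFBP3: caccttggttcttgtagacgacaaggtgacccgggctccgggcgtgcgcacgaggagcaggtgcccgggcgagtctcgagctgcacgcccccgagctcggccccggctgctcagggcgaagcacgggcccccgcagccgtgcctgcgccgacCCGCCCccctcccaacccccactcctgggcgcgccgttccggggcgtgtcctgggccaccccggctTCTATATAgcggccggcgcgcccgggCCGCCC
IGF1R: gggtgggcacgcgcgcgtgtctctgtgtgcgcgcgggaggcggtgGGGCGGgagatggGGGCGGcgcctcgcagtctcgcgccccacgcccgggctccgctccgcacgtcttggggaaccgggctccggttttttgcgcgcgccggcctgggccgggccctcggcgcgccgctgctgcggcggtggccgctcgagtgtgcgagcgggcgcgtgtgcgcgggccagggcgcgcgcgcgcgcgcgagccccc
IGF2R: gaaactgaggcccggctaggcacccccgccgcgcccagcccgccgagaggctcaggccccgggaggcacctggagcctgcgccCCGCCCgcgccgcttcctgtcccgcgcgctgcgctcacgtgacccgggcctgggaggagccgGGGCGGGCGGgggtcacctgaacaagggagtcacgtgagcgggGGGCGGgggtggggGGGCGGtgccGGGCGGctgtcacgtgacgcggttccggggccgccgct
INSR: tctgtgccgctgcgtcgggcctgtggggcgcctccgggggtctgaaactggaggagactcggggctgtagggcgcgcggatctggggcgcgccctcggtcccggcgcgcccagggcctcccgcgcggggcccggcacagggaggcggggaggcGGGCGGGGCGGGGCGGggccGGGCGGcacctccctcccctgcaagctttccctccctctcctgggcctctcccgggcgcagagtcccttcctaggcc
IGFBP4: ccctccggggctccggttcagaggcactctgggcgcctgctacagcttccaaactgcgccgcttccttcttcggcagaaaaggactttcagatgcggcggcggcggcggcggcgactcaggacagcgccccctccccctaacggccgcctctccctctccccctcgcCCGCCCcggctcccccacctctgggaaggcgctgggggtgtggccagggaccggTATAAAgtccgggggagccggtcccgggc

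The promoter windows of the receptors held GC boxes and no TATANA. IGF1R held 2 GC boxes, IGF2R 6 and INSR 4. The binding protein promoters IGFBP3 and IGFBP4 held 2 and 1 GC boxes, and each had TATANA near the start. Its first base lay 32 and 30 bases before the start in IGFBP3 and 29 bases before it in IGFBP4. The 2 matches in IGFBP3 overlap: that at 32 is on the opposite strand, and that at 30 reads the same on both strands. The windows of the other binding protein genes found, IGFBP2, IGFBP5 and IGFBP6, held no TATANA. IGFBP5 and an alternative start of IGFBP2 also held no GC box. A GC box occurred in 42.6% of all 35116 RefSeq windows of this length and TATANA in 17.7%. The GC content was 76.0% for IGFBP3, 81.2% for IGF1R, 79.2% for IGF2R, 78.4% for INSR and 71.6% for IGFBP4, against a median of 58.0% over all windows. IGF2BP2, which did not pass, had the window with the highest GC content (81.6%) and the most GC boxes (7). Its other window had 32.8%, no GC box and TATANA. The GC content was 56.4% to 69.2% for IGFBP2 and 61.2% for both IGFBP5 and IGFBP6. The 10-letter half-site of the p53 family, to which p63 belongs, was found on either strand in 1 of the 12 windows, at an alternative start of IGFBP2, and in 5.57% of all windows. These matches describe letters only.

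Among the binding proteins, IGFBP3, the main carrier of IGFs in blood and a gene described as repressed by p63, was the one that rose. Its log2 intensities were 12.38, 12.31 and 12.39 in shControl and 13.17, 13.29 and 13.12 in shTP63. All shTP63 arrays lay above all shControl arrays, and the groups were far apart relative to their spread. The means were 12.36 ± 0.041 and 13.19 ± 0.088 (SD, n = 3), a difference of 0.83 ± 0.054 (SE, limma adjusted p = 8.70e-06). By size of difference IGFBP3 stood at rank 254 of 18404 genes, and 3.12% of all genes rose by at least 0.5 while 3.87% fell by at least 0.5. Over 18 alternative settings its difference stayed between 0.72 and 0.87 and passed each time.

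IGFBP7, a secreted binding protein of low IGF affinity, was bright in both groups and did not pass. It measured 11.63, 11.58 and 11.60 in shControl and 11.57, 11.56 and 11.55 in shTP63. The groups did not overlap, yet the difference of -0.04 ± 0.041 (SE) was about the size of its error (95% confidence interval -0.14 to 0.05, limma adjusted p = 0.456). Its sign turned to 0.03 after cyclic loess, whereas centring each array on its median gave -0.15, which passed (limma adjusted p = 0.0148).

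IGFBP4, which binds IGFs in tissues and is the classic substrate of pappalysin, measured 9.92, 9.87 and 9.90 in shControl against 9.91, 9.95 and 9.95 in shTP63. The groups overlapped. The difference was 0.04 ± 0.041 (SE, 95% confidence interval -0.05 to 0.14, limma adjusted p = 0.476). It was -0.07 after centring and 0.15 after cyclic loess, where it passed (limma adjusted p = 0.0203).

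IGFBP2, a binding protein with a motif that integrins recognise, measured 8.06, 8.10 and 8.07 in shControl and 7.85, 7.95 and 8.09 in shTP63. Of the shTP63 arrays, 2 were below every shControl array and replicate 3 was not, so the groups overlapped and the spread in shTP63 (SD 0.121) was wider than in shControl (SD 0.023). The difference was -0.11 ± 0.062 (SE, 95% confidence interval -0.25 to 0.03, limma adjusted p = 0.187). Without shTP63 replicate 3 it was -0.17 and passed (limma adjusted p = 0.0300), as it did after centring (-0.22) and after quantile normalization over all probe sets (-0.21).

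IGFBP5, a binding protein held in the extracellular matrix, was dim. It measured 6.10, 6.12 and 6.11 in shControl and 5.97, 6.09 and 6.07 in shTP63, under 6.76, the 95th percentile of the mean levels of 340 olfactory receptor genes, which served as a measure of background. The groups were separated by a small gap, with a difference of -0.06 ± 0.047 (SE, 95% confidence interval -0.17 to 0.04, limma adjusted p = 0.329). At such a level a true change would be compressed. The calls at -0.17 after centring and after quantile normalization over all probe sets rest on the same dim signal.

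IGFBP6, which prefers IGF2 over IGF1, could be read only together with C12orf57 on the shared probe set. That probe set measured 12.07, 12.09 and 12.16 in shControl and 12.19, 12.26 and 12.21 in shTP63. The shTP63 arrays were the higher ones and the groups did not overlap. In a fit over all 32321 probe sets the difference of 0.11 ± 0.046 (SE) missed the threshold (limma adjusted p = 0.106), and it cannot be assigned to either gene.

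**Figure D1:**
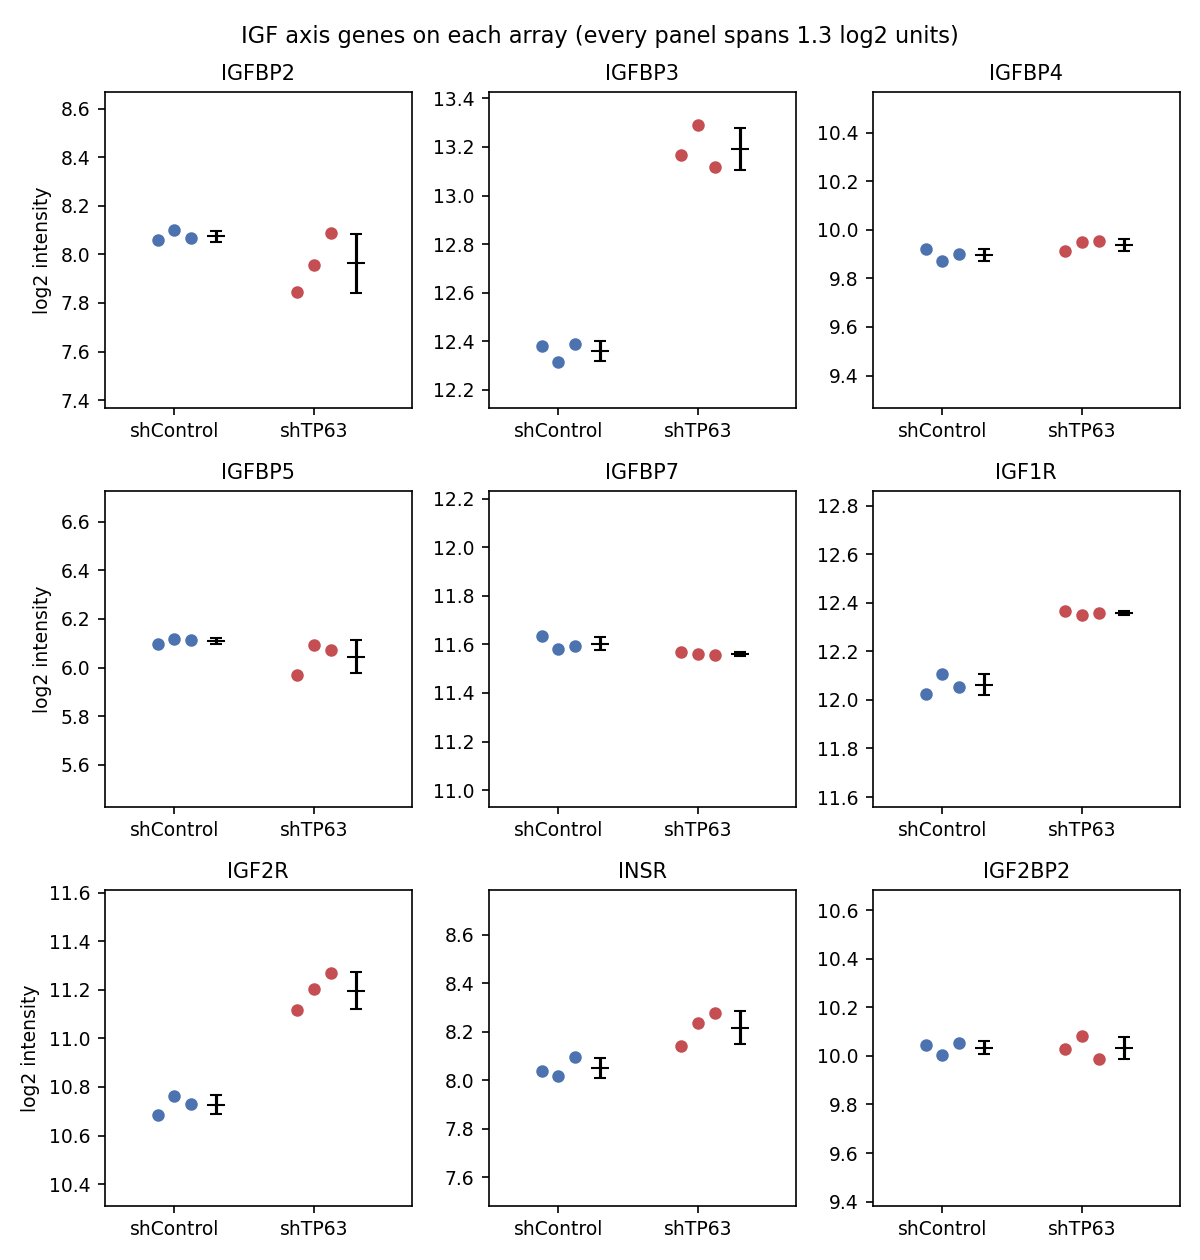
Log2 intensity of the 9 genes on each of the 6 arrays, with shControl in blue, shTP63 in red and black bars for the mean ± SD (n = 3). Every panel spans 1.3 log2 units: IGFBP3, IGF1R and IGF2R stand apart between the groups, INSR narrowly, and the other 5 genes lie close together.

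All 3 receptor genes rose. IGF2R measured 10.69, 10.76 and 10.73 in shControl and 11.12, 11.20 and 11.27 in shTP63. Every shTP63 array was above every shControl array. The means of 10.73 ± 0.039 and 11.20 ± 0.077 (SD, n = 3) differed by 0.47 ± 0.052 (SE, limma adjusted p = 0.000118), and over the 18 alternatives the difference ran from 0.36 to 0.56 and passed each time.

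IGF1R, the signalling receptor of both IGFs, was bright in both groups. Its intensities were 12.03, 12.11 and 12.06 in shControl and 12.37, 12.35 and 12.36 in shTP63. The shTP63 arrays lay within a narrow band (SD 0.0074) above all shControl arrays (SD 0.042). The difference was 0.29 ± 0.043 (SE, limma adjusted p = 0.000521), with a range of 0.19 to 0.35 over the alternatives, all of which kept the call. A second probe set of IGF1R also had non-overlapping groups, at 10.26, 10.21 and 10.21 against 10.41, 10.43 and 10.43. It rose by 0.20 ± 0.041 (SE, limma adjusted p = 0.0101 over all probe sets), so both probe sets of the gene moved in the same direction.

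INSR, the insulin receptor, rose least. The values were 8.04, 8.02 and 8.10 in shControl and 8.14, 8.23 and 8.28 in shTP63, so the highest shControl array was close below the lowest shTP63 array. The difference was 0.17 ± 0.050 (SE, 95% confidence interval 0.05 to 0.28, limma adjusted p = 0.0256). This call was lost without shControl replicate 1 (limma adjusted p = 0.0687), shControl replicate 2 (0.0894), shTP63 replicate 2 (0.0728) or shTP63 replicate 3 (0.0758). It was also lost after centring (difference 0.06, limma adjusted p = 0.353) and after quantile normalization over all probe sets (0.07, limma adjusted p = 0.232).

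IGF2BP2 encodes an RNA-binding protein that takes its name from binding the IGF2 messenger RNA. It measured 10.04, 10.01 and 10.05 in shControl and 10.03, 10.08 and 9.99 in shTP63. The groups were intermixed. The difference was -0.0017 ± 0.044 (SE), with a 95% confidence interval of -0.10 to 0.10 (limma adjusted p = 0.981), and its sign changed with the scaling, from -0.11 after centring to 0.10 after cyclic loess, without passing. The related IGF2BP3 averaged 10.19 ± 0.042 in shControl and 9.97 ± 0.051 in shTP63 (SD, n = 3) and fell by 0.22 (SE 0.047, limma adjusted p = 0.00459), a call lost after cyclic loess (-0.12, limma adjusted p = 0.0611). IGF2BP1, best known from fetal tissue, lay under the olfactory receptor percentile at 6.52 ± 0.103 and 6.53 ± 0.024 and did not pass (limma adjusted p = 0.884). No test compared IGF2BP3 with IGF2BP2.

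How far the remaining differences depend on scaling can be read from the plot of 4 scalings. Under centring the median over all genes shifted from -0.01 to -0.12, and each gene shifted down with it. Of the 9 genes 4 rose and 0 fell on the deposited scale, 3 rose and 3 fell after centring, 3 rose and 2 fell after quantile normalization over all probe sets, and 5 rose and 0 fell after cyclic loess. Over all genes 3015 rose and 4619 fell on the deposited scale, 1782 and 7932 after centring and 3704 and 3663 after cyclic loess. IGFBP3, IGF2R and IGF1R passed as rises under all of these scalings.

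**Figure D2:**
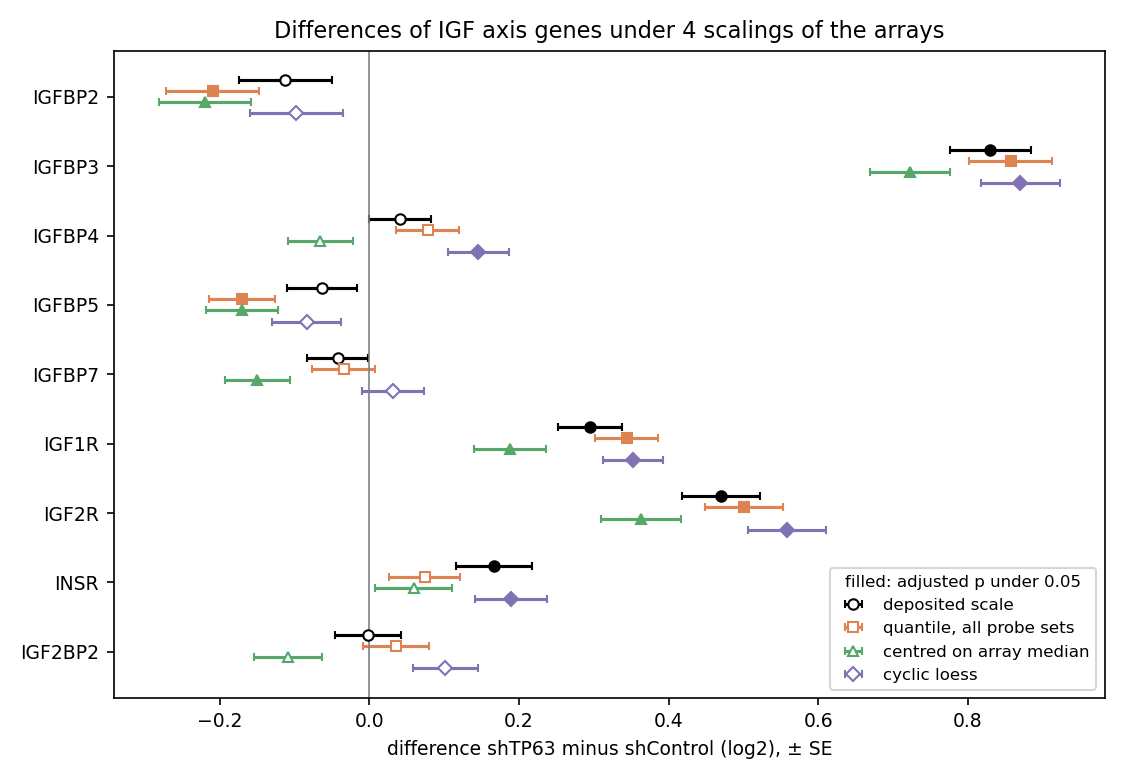
Difference of shTP63 minus shControl (log2) with its SE for the 9 genes under 4 scalings of the arrays, with filled symbols where the adjusted p was under 0.05. IGFBP3 lies between 0.72 and 0.87, IGF2R between 0.36 and 0.56 and IGF1R between 0.19 and 0.35, while IGFBP4, IGFBP7 and IGF2BP2 cross 0.

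No rise or fall was called for the other ligand and binding protein genes of the family. IGF1 lay under the background percentile on every array (5.29 ± 0.092 in shControl and 5.35 ± 0.074 in shTP63, SD, n = 3), with a difference of 0.06 ± 0.060 (SE, limma adjusted p = 0.490). IGF2 and INS are carried by a probe set shared with INS-IGF2, which measured 7.45 ± 0.027 and 7.52 ± 0.056 and did not pass in the fit over all probe sets (limma adjusted p = 0.283). IGFBP1, the insulin-regulated binding protein, differed by 0.07 ± 0.080 (SE), IGFBPL1 by 0.06 ± 0.054, IGFALS, the acid-labile subunit that stabilises IGF-IGFBP3 complexes, by -0.05 ± 0.062 and the insulin receptor-related receptor INSRR by -0.04 ± 0.045, with limma adjusted p from 0.411 to 0.560. INSRR passed as a fall at -0.15 after centring and at -0.16 after quantile normalization over all probe sets. The differences of IGF1, IGFBP1 and IGFBPL1 turned negative under both of these scalings, without passing.

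Genes whose products cut IGFBPs, or govern that cutting, were often higher in shTP63. Of 19 such genes 11 rose and 0 fell in limma (11 and 0 at an unadjusted p under 0.05). Over all genes 16.4% rose and 25.1% fell. The list, chosen with earlier results of these data known, had a median difference of 0.22 against -0.01 over all genes. After centring 9 of the 19 rose and 2 fell. The 8 genes not called were PAPPA2, HTRA1, HTRA3, ADAM28, ADAMTS1, MMP3, CTSD and KLK3. Mean levels of 6 of the 19 lay under the background percentile, among them that of ADAM12 (6.37), a rise named with its value known. PAPPA measured 7.20, 7.17 and 7.22 in shControl and 9.06, 8.86 and 8.95 in shTP63. Its groups were far apart, with a difference of 1.76 ± 0.057 (SE, 3.39-fold, limma adjusted p = 2.36e-07), at rank 24 of 18404 by size. The stanniocalcins STC2 and STC1, which inhibit pappalysin, were named after their values were seen. STC2 rose by 0.66 ± 0.049 (SE, limma adjusted p = 1.45e-05) from 7.79 ± 0.058 to 8.45 ± 0.044, and STC1 by 0.33 ± 0.048 (SE, limma adjusted p = 0.000552) with both groups under the background percentile. MMP7 rose by 2.95 ± 0.111 (SE) and MMP2 by 1.00 ± 0.042, both matrix metalloproteinases reported to cut IGFBPs. Also named after their values were seen, MMP9 rose by 1.05 ± 0.098, MMP1 by 0.79 ± 0.051, the membrane serine protease ST14 by 0.78 ± 0.052 and the metalloproteinase ADAM9 by 0.73 ± 0.051, with limma adjusted p from 7.38e-06 to 4.92e-05. The arrays measured RNA, so cutting of IGFBPs was not measured.

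Surface proteins that bind IGFBPs were likewise higher in part: of 7 genes 4 rose and 0 fell in limma (4 and 1 at an unadjusted p under 0.05). Over all genes 16.4% rose and 25.1% fell. Of the 7 genes, 5 lay in the 2 brightest of 5 bins of mean level, where 18.5% and 25.3% of all genes rose. The list had a median difference of 0.30, and after centring 4 of its genes rose and 3 fell. The integrin subunits ITGA5 (1.42 ± 0.067, SE), ITGAV (0.82 ± 0.042) and ITGB1 (0.57 ± 0.044) rose, as did LRP1, an endocytic receptor named after its value was seen (0.30 ± 0.050, limma adjusted p = 0.00124).

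Downstream of IGF1R and INSR, most of the signalling genes fell. Of 21 measured genes of receptor substrates and PI3K-AKT-mTOR signalling 0 rose and 15 fell in limma (1 and 17 at an unadjusted p under 0.05), with a median difference of -0.25. All 21 were well above the background percentile, and among all genes split by mean level into 5 bins of equal size, 44.0% fell in the top bin and 43.0% in the one below it, with a median difference of -0.10 in each. Centring gave 0 rises and 19 falls, cyclic loess 1 and 12. The 6 genes not called were IRS1, EIF4EBP1, MTOR (-0.07 ± 0.048, SE), RPTOR (-0.06 ± 0.072), RICTOR (-0.07 ± 0.048) and RPS6KB1, which was higher (0.13 ± 0.048). PIK3R3, a regulatory subunit of PI3-kinase, measured 10.61, 10.66 and 10.60 in shControl and 9.54, 9.56 and 9.44 in shTP63. Its groups did not overlap, and PIK3R3 fell by 1.11 (SE 0.048, limma adjusted p = 9.74e-07). The RAS exchange factor SOS1 fell by 0.40 (SE 0.048) and the mTOR activator RHEB by 0.36 (SE 0.045). Chosen for naming with their values known were the insulin receptor substrate IRS2, which fell by 0.26 (SE 0.048), the adaptors GRB2 (-0.29 ± 0.044) and GAB1 (-0.41 ± 0.052), the PI3-kinase subunits PIK3CB (-0.30 ± 0.042) and PIK3R1 (-0.40 ± 0.054), and the kinases AKT1 (-0.25 ± 0.042) and AKT2 (-0.30 ± 0.046), with limma adjusted p from 0.000263 to 0.00225. A second, dimmer probe set of GAB1 did not pass (-0.13 ± 0.107). The 10 genes named here as falls kept their calls in all 18 alternatives.

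**Figure D3:**
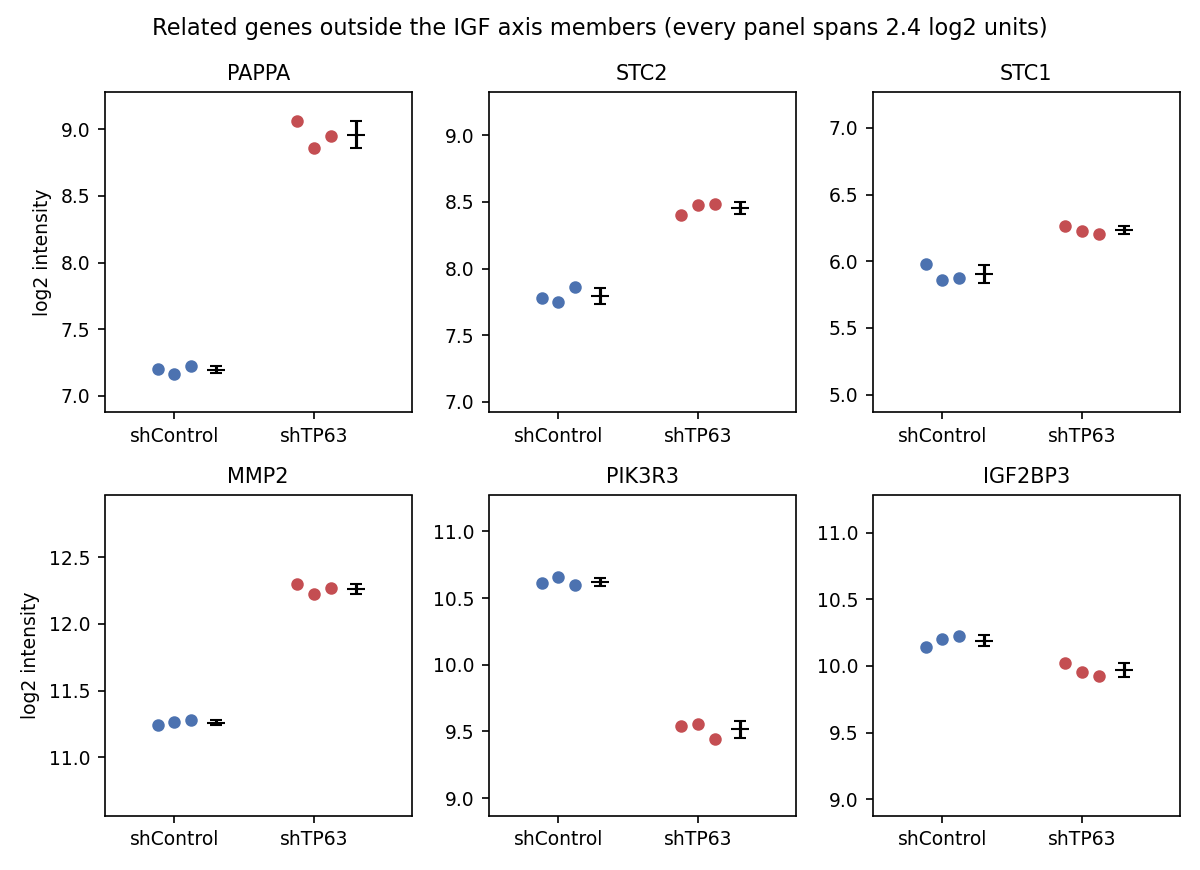
Log2 intensity on each array of PAPPA, STC2, STC1, MMP2, PIK3R3 and IGF2BP3, with shControl in blue, shTP63 in red and black bars for the mean ± SD (n = 3), each panel spanning 2.4 log2 units. PAPPA, STC2 and MMP2 are higher in shTP63, PIK3R3 is lower, and STC1 and IGF2BP3 differ by less.

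Inhibitors of insulin and IGF signalling followed neither direction as a list: of 18 measured genes 1 rose and 5 fell, and the list's median was -0.00, beside 16.4% of all genes that rose and 25.1% that fell. NEDD4, a ubiquitin ligase that acts on IGF1R, rose by 0.33 ± 0.051 (SE, limma adjusted p = 0.000739). The AKT inhibitor TRIB3 fell by 0.44 (SE 0.044) and SOCS2 by 0.23 (SE 0.041). DEPTOR, TSC2 and SOCS6, singled out with their values known, made up the rest of the falls. DEPTOR lay under the background percentile in both groups, and SOCS6 lost its call in 11 of 18 alternatives. TSC2 was lost without shControl replicate 3 (limma adjusted p = 0.0507), shTP63 replicate 1 (0.0582) or shTP63 replicate 2 (0.0591), and also after cyclic loess (0.118), after quantile normalization over probe sets with 1 gene (0.0667) and in the unmoderated test (0.102). The list had 1 rise and 8 falls after centring, and 5 rises and 3 falls after cyclic loess.

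IGF2R works with the other proteins of the mannose 6-phosphate sorting system, in which both directions were seen. Among its 16 genes were 4 rises and 8 falls, and the median was -0.12. All 16 lay in the 2 brightest bins, where 43.0% and 44.0% of all genes fell and the median was -0.10, so the share of falls was near that of bright genes in general. The rises were those of GNPTAB (0.41 ± 0.052, SE, limma adjusted p = 0.000244), NAGPA and GNPTG, which make the mannose 6-phosphate tag, and M6PR, the cation-dependent receptor (0.18 ± 0.049, limma adjusted p = 0.0145). NAGPA, GNPTG and M6PR, chosen with their values known, lost their calls after centring, where 1 gene rose and 11 fell, whereas cyclic loess gave 5 rises and 5 falls. NAGPA was also lost without shControl replicate 1 (limma adjusted p = 0.0562), and GNPTG without it (0.0624) or shTP63 replicate 2 (0.0520). Retromer and sorting nexin genes, which return IGF2R from endosomes, were among the falls: VPS26A fell by 0.38 (SE 0.044), SNX2 by 0.43 (SE 0.065), and SNX1 and SNX6, named after their values were seen, by 0.31 (SE 0.049) and 0.36 (SE 0.058).

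**Figure D4:**
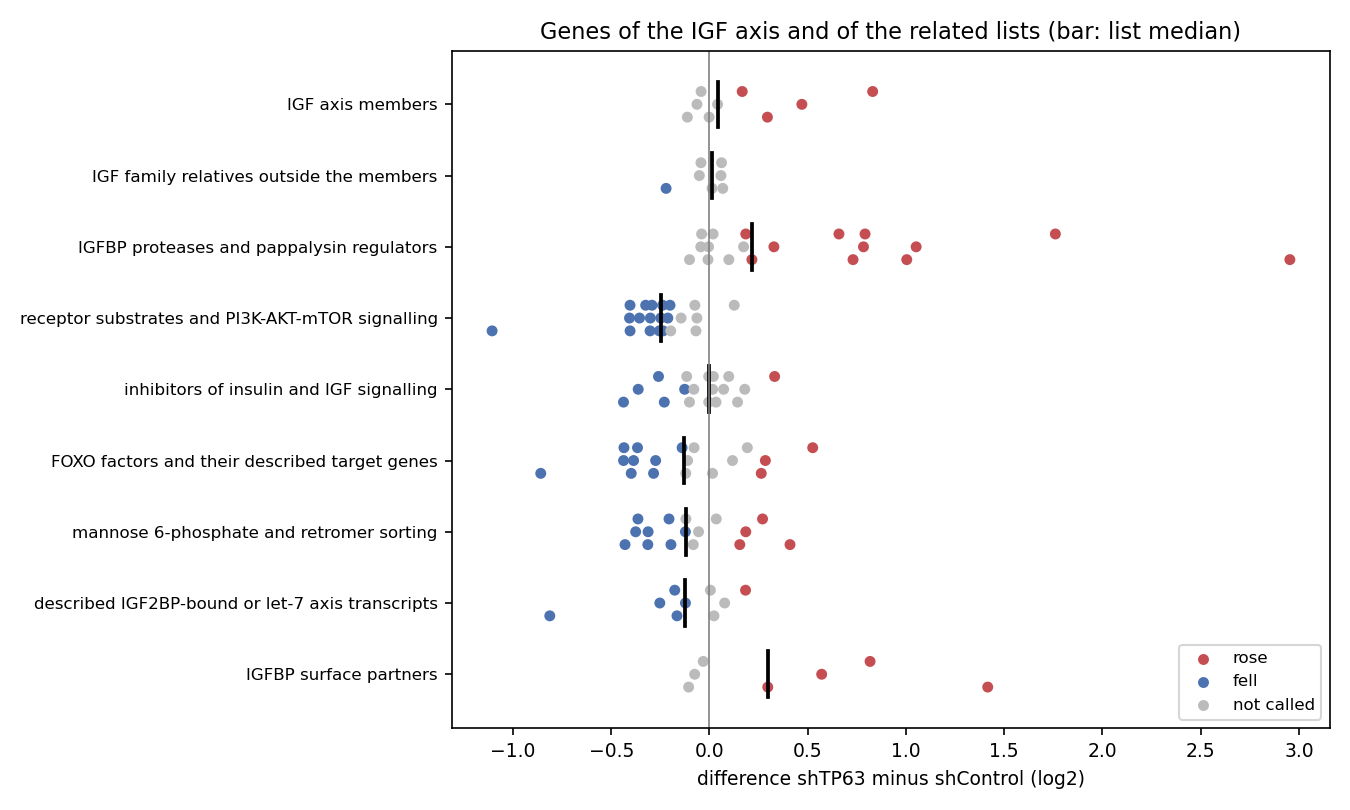
Difference of shTP63 minus shControl (log2) of each gene of the IGF axis and of 8 related lists, in red where it rose, blue where it fell and grey where it was not called, with a bar at the list's median. The medians are 0.22 for IGFBP proteases and pappalysin regulators and -0.25 for receptor substrates and PI3K-AKT-mTOR signalling.

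Keratinocyte markers, those of the labelled cell type, were bright on all arrays. The 8 measured keratinocyte markers had mean levels of at least 10.88, and 6 of them fell, among them KRT15 (-0.91 ± 0.047, SE), SFN (-0.60 ± 0.042), KRT5 (-0.50 ± 0.046) and KRT14 (-0.35 ± 0.048), so that the mean of the list was 12.58 to 12.61 on the shControl arrays and 12.21 to 12.24 on the shTP63 arrays. All 8 lay in the 2 brightest of 5 bins of mean level, where 43.0% and 44.0% of all genes fell. Among all genes, at any level, 16.4% rose and 25.1% fell. Fibroblasts are a rich source of several IGFBPs. Of 9 fibroblast markers 2 rose (COL1A1 and FBLN1) and 1 fell (DCN), 3 had mean levels under the background percentile, and the mean of the list was 7.39 to 7.47 in shControl and 7.48 to 7.55 in shTP63. Endothelial markers (7 measured, CLDN5 rose and VWF fell), melanocyte markers (4 measured, PMEL rose) and immune markers (6 measured, 0 passed in limma, 1 at an unadjusted p under 0.05) had 5, 3 and 4 members under that percentile. Not all markers of other cell types were dim. FBLN1 had a mean level of 10.91, above the dimmest keratinocyte marker, PKP1, at 10.88. The endothelial marker CDH5, which did not pass, had one of 9.53. These markers were picked for naming with their values known. CLDN5 lost its call in 10 of 18 alternatives and DCN in 8 of 17, among them the fits without any 1 of 4 arrays. COL1A1 was lost after centring (limma adjusted p = 0.222) and without shControl replicate 3 (0.0603), FBLN1 after centring (0.0722), PMEL after centring (0.0528) and after quantile normalization over all probe sets (0.0739), and VWF without shControl replicate 3 (0.0558). The part of other cell types in the differences of the IGF axis genes was not tested. In bulk RNA a change in the share of cells that express a gene and a change in its level per cell cannot be told apart.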

How the data were processed

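Gene expression was measured on 6 arrays, 3 labelled shControl and 3 labelled shTP63, and the sample titles gave groups and replicate numbers. Per the submitters' processing notes, RMA (robust multi-array average) was run in R 2.15.1, which corrects the background and normalizes the arrays to each other. The deposited intensities are linear (array medians 173 to 190), although log2 values had been planned for, and were converted to log2 here. The array's genome build is not given in the sources used here. The platform annotation gave 19158 of 32321 probe sets 1 gene and 1388 several, and left 11775 unlisted. Each of 18404 genes was read at its probe set with the highest mean, and probe sets with several genes entered no test of genes. A fit of both groups in limma 3.58.1 (R 4.3.3, lmFit then eBayes) gave two-sided p-values, adjusted by Benjamini-Hochberg over the 18404 genes and read at 0.05. Arrays give no counts, so their number limits the precision: the median SE of a difference was 0.053. The fit was tested on simulated data. The members, the lists and the rule for naming genes were chosen with earlier results of these data known. The rule named the members, the measured family relatives, in each other pathway list the up to 3 genes with the smallest adjusted p past the threshold, and the 3 genes most like the member that rose with the smallest adjusted p. Lists came from general knowledge and are given by counts and medians, with no test of the list. Other settings tried were a block for the replicate number, quantile normalization over all probe sets and over those with 1 gene, centring on the array median, cyclic loess, leaving out the dimmest 40% of genes, averaging a gene's probe sets, a robust prior with a trend, weights per array, an unmoderated test, each array left out in turn, a threshold of 0.01 and, chosen after seeing the data, all probe sets tested. Promoter sequences come from RefSeq. Some listed genes are not reported here.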

Additional observations from a re-analysis of the deposited data

How the results depend on the processing

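Over 9 genes of the IGF axis and up to 18 alternatives each, 136 of 161 values kept their direction and their side of the threshold, 8 lost a call (all of INSR), 7 gained one and 10 changed sign, none of the latter with a call. The rises numbered 3 to 5. Falls, 0 on the deposited scale, numbered 2 after quantile normalization over all probe sets (IGFBP2 and IGFBP5), 3 after centring on the array median (also IGFBP7) and 0 to 1 with 1 array left out. Over all genes 1782 rose and 7932 fell after centring, while leaving out 1 array gave 2503 to 2910 rises and 3923 to 4380 falls. The share of falls among calls was 60.5% as deposited, 69.0% after quantile normalization over all probe sets, 81.7% after centring, 52.8% after quantile normalization over probe sets with 1 gene and 49.7% after cyclic loess. Sign changes without a call were as follows. Centring gave -0.066 for IGFBP4, -0.049 for IGF1, -0.040 for IGFBP1, -0.046 for IGFBPL1 and -0.094 for IGF2BP1. Quantile normalization over all probe sets gave 0.035 for IGF2BP2, -0.019 for IGF1, -0.028 for IGFBP1, -0.011 for IGFBPL1 and -0.10 for IGF2BP1. Cyclic loess gave 0.032 for IGFBP7, 0.10 for IGF2BP2 and -0.013 for IGF2BP1, quantile normalization over probe sets with 1 gene 0.073 for IGF2BP2 and -0.015 for IGF2BP1, and array weights 0.0085 for IGF2BP2. With 1 array left out IGF2BP2 ranged from -0.026 to 0.020, IGFBP1 from -0.0078 to 0.16, IGFALS from -0.11 to 0.0014 and IGF2BP1 from -0.032 to 0.069. With all probe sets of a gene averaged, HMGA1 gave 0.063. The causes were not tested. Deviations from the group means correlated at -0.15, -0.04 and 0.13 between arrays of the same replicate number, and 1 of 3 shControl arrays correlated best with its own number. These values showed no pairing by number, but with 3 arrays per group they cannot exclude it. With the replicate number as a block 4 genes of the IGF axis rose and 0 fell, against 4 and 0 without it, and over all genes 2832 rose and 4333 fell. Signals near background limit what can be seen for IGFBP5, IGF1, IGF2BP1, STC1 and DEPTOR.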

Other observations

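AKT holds the FOXO factors out of the nucleus when insulin or IGF signals. The genes of these factors, taken with genes described as their targets, showed both directions. Of 18 genes 3 rose and 9 fell, beside 16.4% and 25.1% of all genes, and the median was -0.13. Of these genes 11 lay in the 2 brightest of 5 bins of mean level. In those bins 18.5% and 25.3% of all genes rose and 43.0% and 44.0% fell. The rest lay in dimmer bins, where 4.4%, 8.7% and 25.4% of all genes fell. SESN3, a stress-response gene that restrains mTORC1, fell from 10.09 to 9.23 (difference -0.86 ± 0.045, SE, limma adjusted p = 2.58e-06), its relative SESN1 by 0.44 (SE 0.046) and the repressor BCL6 by 0.40 (SE 0.044). FOXO4 (-0.39 ± 0.046) and FOXO1 (-0.28 ± 0.065), named after their values were seen, fell, the latter losing its call after cyclic loess (limma adjusted p = 0.0594). The genes that rose, likewise chosen with values known, were the ubiquitin ligase FBXO32 (0.53 ± 0.062), the receptor ERBB3 (0.26 ± 0.041) and the mitochondrial superoxide dismutase SOD2 (0.28 ± 0.069), which lost its call after centring (limma adjusted p = 0.0536). IRS2, itself described as induced by FOXO factors, is not among these 18 genes and fell as one of the receptor substrates.

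Of 9 measured transcripts described as bound by the IGF2BP family or as part of the let-7 pathway, 1 rose and 5 fell. Over all genes 16.4% rose and 25.1% fell. The median was -0.12, and 7 of the 9 lay in those same bright bins, where 43.0% and 44.0% of all genes fell. BTRC, a ubiquitin ligase subunit, fell by 0.81 (SE 0.045, limma adjusted p = 3.72e-06) and MYC by 0.25 (SE 0.041), whereas CD44 rose by 0.18 ± 0.040 (SE), a call lost after centring (limma adjusted p = 0.180). CCND1, LAMB2 and HMGA1, named after their values were seen, also fell on the deposited scale, and 2 other probe sets of HMGA1 were higher in shTP63, by 0.16 and 0.15. After cyclic loess 1 rose and 2 fell, with CCND1 (limma adjusted p = 0.0534) and LAMB2 (0.166) no longer called, and HMGA1 was lost in 12 of 18 alternatives.

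Over the 6 arrays the genes whose log2 values followed IGFBP3 most closely were TMEM39A (Pearson r = 0.999), EXT2 (0.999), a heparan sulfate polymerase subunit gene, and MPZL3 (0.999), out of 1285 genes that passed with a difference of at least 0.5. The points are the same 6 arrays in 2 groups, so the likeness is largely that of the group difference.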
